A study of Homo sapiens with 12 samples.

Results

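The effect of PTPN21 overexpression in the absence of drug was examined in 6 of 12 RNA libraries, 3 from cells with the PTPN21 construct (PTPN21+DMSO) and 3 from cells with the control vector (NC+DMSO). Genes were compared where FPKM averaged 1 or more across these 6 libraries, which was true of 11894 of the 60671 genes listed. FPKM counts the sequenced fragments of a gene relative to gene length and to library size. Changes are given as log2 fold changes on the log2(FPKM + 1) scale, where changes at low FPKM appear smaller than they are.

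All libraries were labelled as Jurkat, an established human T cell leukemia line, and all were collected at 48 h. NC cells are WT in the labels, and in the study's methods the control is a lentiviral GFP vector. PTPN21 cells carried FLAG-tagged PTPN21 behind the viral SFFV promoter, so the transcript measured comes mainly from a constitutive transgene. Both groups received DMSO, the solvent of vincristine (VCR), and the other 6 libraries, NC+VCR and PTPN21+VCR, received VCR. Each group was thus a single transduced population as far as the sources state, so construct and transduction cannot be told apart. Nothing in the labels says that the 3 libraries of a group came from separate cultures, and the p-values then measure only the spread between these libraries.

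PTPN21, also called PTPD1, is a cytoplasmic protein tyrosine phosphatase. It carries a FERM domain, a module that attaches proteins to the inner face of the membrane and to the actin cytoskeleton, and it is known as a partner of the kinase SRC in growth factor signalling. Its closest relative is PTPN14, a regulator of the Hippo pathway.

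PTPN21 was examined before any other gene. Its FPKM was 0.0767, 0.0212 and 0.0934 in the NC+DMSO libraries and 7.93, 10.5 and 8.02 in the PTPN21+DMSO libraries. The groups did not overlap, and every control library was close to 0. The log2 fold change was 3.20 ± 0.22 (SE, n = 3 per group, limma adjusted p = 4.76e-05, and 0.00244 when only the 6 DMSO libraries were fitted). An exact two-sided permutation test of the FPKM gave p = 0.1, the smallest value that 3 against 3 libraries allow.

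The labelled cell type was checked against its markers. Of 16 T cell markers, CD3E, CD247, CD2, CD4, CD5, CD6, CD28 and LCK stayed below 0.2 FPKM in every DMSO library, and only CD3D, a chain of the T cell receptor complex, was abundant, at 61.8 to 93.8 in NC+DMSO and 116 to 140 in PTPN21+DMSO. The constant chains TRAC and TRBC2 did not reach a mean of 1, TRBC1 lay between 1.45 and 4.11, and the summed FPKM of all 16 markers was 64.6 to 98.6 in NC+DMSO and 120 to 147 in PTPN21+DMSO.

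Genes of other lineages were abundant in the same libraries. The summed FPKM of 8 erythroid markers was 1220 to 1940 in NC+DMSO and 2850 to 4030 in PTPN21+DMSO, with only HBB, the adult beta-globin, near 0. The erythroid transcription factor GATA1 stood at 57.4 to 76.9 and 85 to 106. Of 7 epithelial markers, the keratins KRT8, KRT18 and KRT19 and the adhesion molecule EPCAM were expressed, and their list summed to 605 to 801 and 758 to 853. Of 10 myeloid markers, CD68 supplied most of a sum of 463 to 503 and 334 to 392, at 408 to 463 and 284 to 346. CD33 came next, while MPO, S100A8, S100A9, CD14, CSF1R and FCGR3A stayed below 0.2 FPKM in every DMSO library. The 11 B cell markers together did not exceed 1.78. The defining T cell markers were therefore largely absent, and the cells are called by their label only.

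The libraries differed in ways that touch every count that follows. The estimated depth of the PTPN21+DMSO libraries was 1.56 to 1.66 times that of the shallowest NC+DMSO library, and no other NC+DMSO library exceeded 1.13 times, so depth and construct cannot be told apart. Correlations between replicates were 0.967 to 0.976 in PTPN21+DMSO and 0.935 to 0.961 in NC+DMSO, where replicate 3 stood apart most. The change also varied with the length of the gene. Across 11800 genes with a known length, Spearman's rho of the log2 fold change was -0.356 with exon length and 0.205 with GC content, as a description of genes that share the same libraries.

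**Figure D1:**
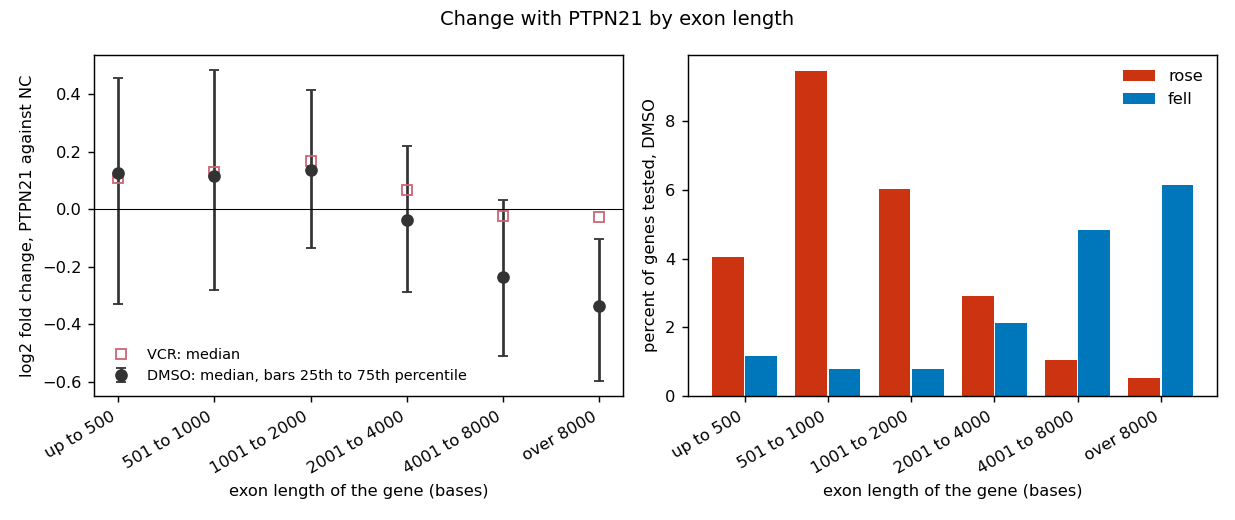
Change with PTPN21 by exon length of the gene. The left panel plots the median log2 fold change in the DMSO libraries (circles, bars from the 25th to the 75th percentile) and the median in the VCR libraries (squares), and the right panel the percent of genes in each bin that rose or fell. The DMSO median goes from 0.12 in genes up to 500 bases to -0.34 in genes over 8000 bases.

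Genes that rose had a median exon length of 1941 bases and genes that fell 6336 bases, against 4345 for all genes tested. In the plot by exon length, 9.47% of genes of over 500 and up to 1000 bases rose and 0.776% fell, while 0.533% of genes over 8000 bases rose and 6.15% fell. Whether length, depth or RNA quality had a part in any single change was not tested. For most gene lists with calls, the counts are also given after a correction for GC content and length that was added after seeing the data.

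Between PTPN21+DMSO and NC+DMSO, 725 of 11894 genes (6.1%) passed an adjusted p of 0.05, of which 301 (2.53%) rose and 424 (3.56%) fell. The split between rises and falls depended on the scaling of the libraries. The median log2 fold change of all genes was -0.14, and 41.5% of the calls were rises. With median ratio scaling, which moved that median to 0.02, 413 of 541 calls (76.3%) were rises, while with every library scaled to the same sum (TPM) 220 of 1081 (20.4%) were. All 301 rises passed under median ratio scaling, against 128 of the 424 falls, and after the length correction 211 of the rises and 126 of the falls passed, among 2.27% of all genes that rose and 1.18% that fell in that fit.

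The number of calls rested on single libraries. It was 55 without PTPN21+DMSO replicate 1, 132 without NC+DMSO replicate 3, 172 without NC+DMSO replicate 1, 176 and 397 without PTPN21+DMSO replicates 3 and 2, and 1341 without NC+DMSO replicate 2. Leaving out a PTPN21+VCR library, which lends only its spread, gave 385, 451 and 469 calls for replicates 1, 2 and 3. When the 6 DMSO libraries were fitted alone, 43 genes (0.362%) passed, 32 of them higher, and 38 of the 43 were among the 725.

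The largest gene group to move was that of the ribosomal proteins, the protein subunits of the cytoplasmic ribosome. Their transcripts belong to the most abundant of the cell and mostly begin with a 5′ terminal oligopyrimidine tract, a C at the start site followed by a run of C and T through which translation of the whole family is known to be controlled. In RefSeq (GRCh38.p14), the tract was taken as a C at the start site followed by at least 4 C or T on the transcribed strand. A gene was counted if any of its promoter entries had it. By gene, it was found in 71.2% of the 66 ribosomal protein genes tested that have an entry and in 8% of 8217 genes tested. By entry, it was found in 57.3% of 82 ribosomal protein entries and in 4.07% of all 35116 promoter entries. The windows below, 10 bases before and 20 bases from the annotated start site, belong to the 8 ribosomal protein genes with the largest rises and an entry on a chromosome printed here, and to COX4I1, a respiratory chain gene described further on. For a gene with several entries, one with the tract is shown where there is one. By gene, the tract was found in 14.3% of the 63 respiratory chain genes tested that have an entry. Among the 12 of them that rose it was found in 25%, so COX4I1 does not stand for its list. Capitals mark the tract, and its absence says only that these letters are not at this annotated start.
RPL17, chr18:49492446-49492475, minus strand: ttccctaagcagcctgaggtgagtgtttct
RPL35, chr9:124861938-124861967, minus strand: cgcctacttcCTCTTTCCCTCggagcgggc
RPL24, chr3:101686699-101686728, minus strand: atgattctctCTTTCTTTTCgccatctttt
RPL22, chr1:6199576-6199605, minus strand: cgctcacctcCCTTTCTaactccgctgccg
RPL34, chr4:108620566-108620595, plus strand: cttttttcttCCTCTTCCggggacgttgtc
RPL26L1, chr5:172958719-172958748, plus strand: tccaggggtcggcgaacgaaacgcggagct
RPL12, chr9:127451387-127451416, minus strand: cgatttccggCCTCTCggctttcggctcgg
RPS9, chr19:54200848-54200877, plus strand: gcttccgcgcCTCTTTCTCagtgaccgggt
COX4I1, chr16:85799685-85799714, plus strand: cggccttgctCTCTTCCggtcgcgggacac

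Of 82 ribosomal protein genes tested, 25 rose and none fell in limma, against 2.53% of all genes that rose. The list's median log2 fold change was 0.38, against -0.14 over all genes, and 73 of the 82 were above 0. The tract was found in 65.2% of the 23 risers with an entry and in 74.4% of the 43 with an entry that did not pass, a difference that was not tested.

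RPL35 had FPKM of 8273, 9760 and 5541 in NC+DMSO and 19201, 14833 and 16344 in PTPN21+DMSO. Its log2 fold change was 1.13 ± 0.17 (SE, n = 3 per group, adjusted p = 0.00701). RPL24 stood at 1392, 1531 and 951 against 2983, 2375 and 2496, a log2 fold change of 1.04 (adjusted p = 0.00701). In both genes NC+DMSO replicate 3 was the lowest library and the groups were clearly apart.

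RPL17 showed the widest spread of the risers, with 546, 788 and 419 in NC+DMSO and 3386, 1836 and 1107 in PTPN21+DMSO (log2 fold change 1.75, adjusted p = 0.0308). RPS20, RPL22 and RPL34 rose by 1.05, 1.02 and 1.00 (adjusted p = 0.00536, 0.0372 and 0.00948). The genes below 0 did not pass, the lowest being RPS3 at -0.72 (adjusted p = 0.16), which was named after its value was seen. Processed pseudogenes of the same family moved alike: 28 of 137 rose and none fell, against 2.53% and 3.56% of all genes. RPS23P8 was at 1.40 and RPS3AP26 at 1.00. Pseudogene sequences are near-identical to the parent genes, so the reads cannot be assigned with certainty.

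After the length correction 23 ribosomal protein genes rose, against 2.27% of all genes, and the median was 0.52. Without single DMSO libraries the count of risers was lowest at 5 when PTPN21+DMSO replicate 1 was omitted and highest at 36 when NC+DMSO replicate 2 was omitted, with 12 without NC+DMSO replicate 1, 12 without NC+DMSO replicate 3 and 13 without PTPN21+DMSO replicate 3, and no member fell in any of them. None of the 82 passed when the 6 DMSO libraries were fitted alone. The scaling mattered as well: 18 rose and 2 fell with quantile normalization (median 0.21), and 24 rose and 1 fell with TPM scaling (median 0.23). With median ratio scaling 25 rose and with a replicate block over 12 libraries 17 rose, and none fell in either.

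**Figure D2:**
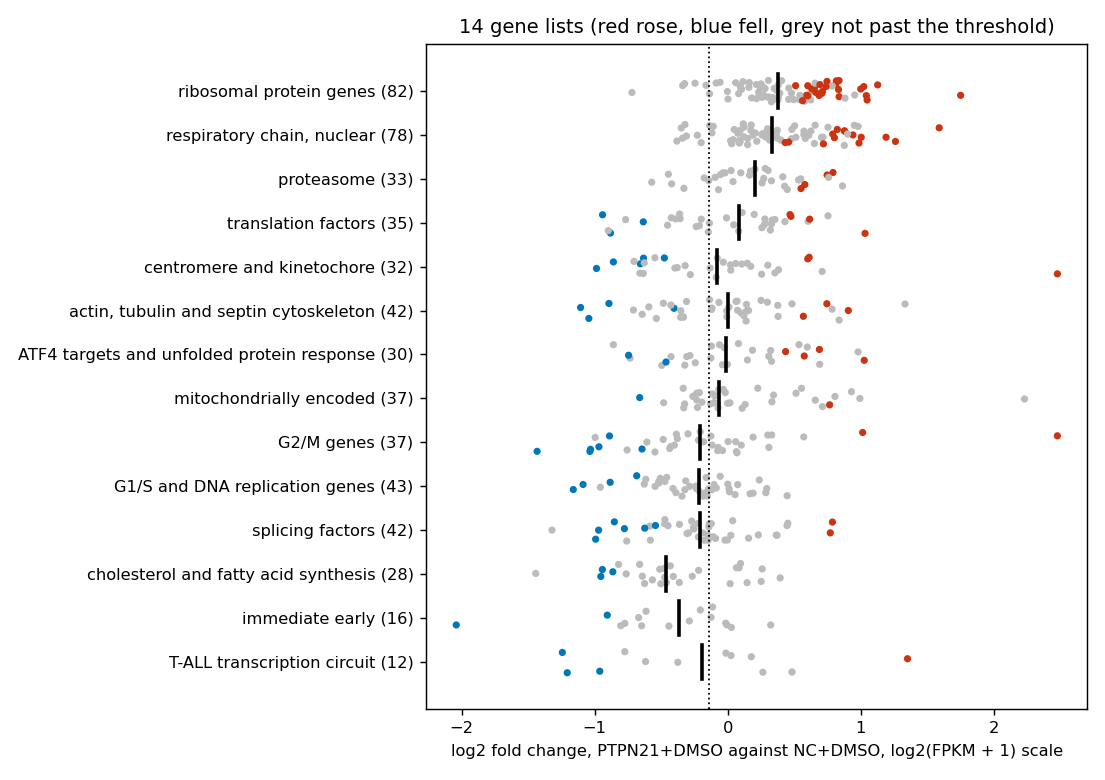
Log2 fold change of PTPN21+DMSO against NC+DMSO for the tested members of 14 gene lists, with the number tested in brackets, a thick bar at each list's median and a dotted line at the median of all genes. Ribosomal protein and respiratory chain members lie mostly to the right of the dotted line, with medians of 0.38 and 0.33, and no blue point.

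Translation factors, which load and drive the ribosome, were split. Of 35 tested, 4 rose and 3 fell, against 2.53% and 3.56% of all genes, and the median was 0.08. EIF4EBP1, a repressor of cap-dependent initiation that mTOR switches off, rose from 228, 295 and 163 to 521, 413 and 440 (log2 fold change 1.03, adjusted p = 0.0127), while EIF4G2, an initiation factor for cap-independent translation, fell by 0.94 and EIF4H, a helper of the eIF4A helicase, by 0.88 (adjusted p = 0.0388 and 0.0319). EIF3K and EEF1D rose by 0.62 and 0.47, and EIF3A, a subunit of the initiation factor eIF3, fell by 0.63. Only EIF4EBP1 and EIF4H of these 6 passed after the length correction.

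NOP10, LAS1L and RMRP were among the genes with the largest or most certain rises and belong to no list counted here. NOP10, a core protein of the snoRNPs that pseudouridylate ribosomal RNA, was at 131, 143 and 94.2 in NC+DMSO and at 359, 359 and 352 in PTPN21+DMSO (log2 fold change 1.55, adjusted p = 0.00193, and 0.0188 with the 6 DMSO libraries alone). LAS1L, needed for processing of the large subunit's ribosomal RNA, went from 86.5, 94.4 and 81.1 to 186, 187 and 178 (log2 fold change 1.07, adjusted p = 0.0274 and 0.0188). The values of both genes were nearly constant within PTPN21+DMSO and lay far above every control library.

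RMRP, the RNA of an endonuclease that cuts precursor ribosomal RNA, stood at 1.99, 2.19 and 0.381 against 14.5, 6.69 and 11 (log2 fold change 2.25, adjusted p = 0.0127). Of 14 host genes of small nucleolar RNAs, a list chosen after values were seen, 2 rose and none fell. Of all genes, 2.53% rose and 3.56% fell. The rises were GAS5 (0.81) and SNHG5 (0.91). Both are transcripts whose introns carry small nucleolar RNAs, and both passed after the length correction.

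The nuclear-encoded subunits of the respiratory chain and ATP synthase, which carry out oxidative phosphorylation in mitochondria, formed the next group. Of 78 tested, 14 rose and none fell, against 2.53% of all genes, with a median log2 fold change of 0.33 and 68 members above 0. After the length correction 12 rose. Omitting PTPN21+DMSO replicate 1 gave 3 and omitting NC+DMSO replicate 2 gave 21, with 8 and 6 without NC+DMSO replicates 1 and 3 and 7 and 5 without PTPN21+DMSO replicates 2 and 3.

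ATP5PF, a subunit of the stalk of ATP synthase, had FPKM of 367, 413 and 262 in NC+DMSO and 1154, 929 and 1014 in PTPN21+DMSO, the largest change of the list (log2 fold change 1.59 ± 0.16, SE, n = 3 per group, adjusted p = 0.000842). COX4I1, a structural subunit of cytochrome c oxidase, stood at 221, 264 and 285 against 642, 545 and 568 (log2 fold change 1.19 ± 0.11, adjusted p = 0.000645). ATP5MD and ATP5MG, small membrane subunits of ATP synthase, rose by 1.26 and 1.00, and complex I members NDUFA6 and NDUFAB1 by 0.99 and 0.94. ATP5PF, COX4I1, ATP5MD and ATP5MG were the members that also passed with the 6 DMSO libraries alone (adjusted p = 0.0211, 0.0211, 0.0338 and 0.0428).

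The 37 mitochondrially encoded genes did not share that pattern. Only MT-RNR1, the small ribosomal RNA of the organelle, rose (0.77, adjusted p = 0.016) and only MT-ND4L fell (-0.66, adjusted p = 0.0497), and the list's median was -0.07. Its summed FPKM was 59200 to 66600 in NC+DMSO and 58200 to 60800 in PTPN21+DMSO, so these ranges overlapped. MT-ND4L overlaps its neighbour MT-ND4, and reads in the overlap cannot be told apart. Of 33 proteasome genes, 4 rose (PSMB6, PSMD7, PSMA7 and PSMB1, by 0.79, 0.75, 0.58 and 0.55) and none fell, but there were 0 when NC+DMSO replicate 3 or PTPN21+DMSO replicate 1 or 3 was left out. The count was 7 without NC+DMSO replicate 2 and 1 without NC+DMSO replicate 1 or PTPN21+DMSO replicate 2, and after the length correction 2 rose. Of all genes, 2.53% rose with all libraries and 2.27% after the length correction.

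The globin genes HBG2, HBG1 and HBA1 were abundant in every DMSO library and rose with PTPN21, while HBA2 did not pass (48.3, 62.9 and 48.4 against 114, 68.3 and 62.3, log2 fold change 0.57, adjusted p = 0.125) and HBB was near 0. Hemoglobin is a tetramer of alpha-type and beta-type chains, and HBG1 and HBG2 are the fetal gamma chains and HBZ the embryonic zeta chain. HBG2 was at 1141, 1308 and 780 in NC+DMSO and at 2985, 1966 and 2224 in PTPN21+DMSO, with no overlap (log2 fold change 1.16 ± 0.19, SE, n = 3 per group, adjusted p = 0.00885). HBG1 rose from 336, 448 and 271 to 709, 648 and 561 (0.88, adjusted p = 0.0263), and HBA1 from 87.5, 86.0 and 82.5 to 190, 133 and 138 (0.82, adjusted p = 0.013).

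Of the 7 erythroid markers tested, these 3 rose and none fell, against 2.53% and 3.56% of all genes. ALAS2, the erythroid enzyme that begins heme synthesis, had a log2 fold change of 0.17 (adjusted p = 0.574). HBG1 and HBG2 are near-identical, as are HBA1 and HBA2, so their reads may be split uncertainly. None of the 3 passed with the 6 DMSO libraries alone (adjusted p = 0.0725 for HBG2, 0.0776 for HBG1 and 0.0719 for HBA1), and HBA1 did not pass after the length correction (0.0541). Without PTPN21+DMSO replicate 1 the list held 1 rise.

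**Figure D3:**
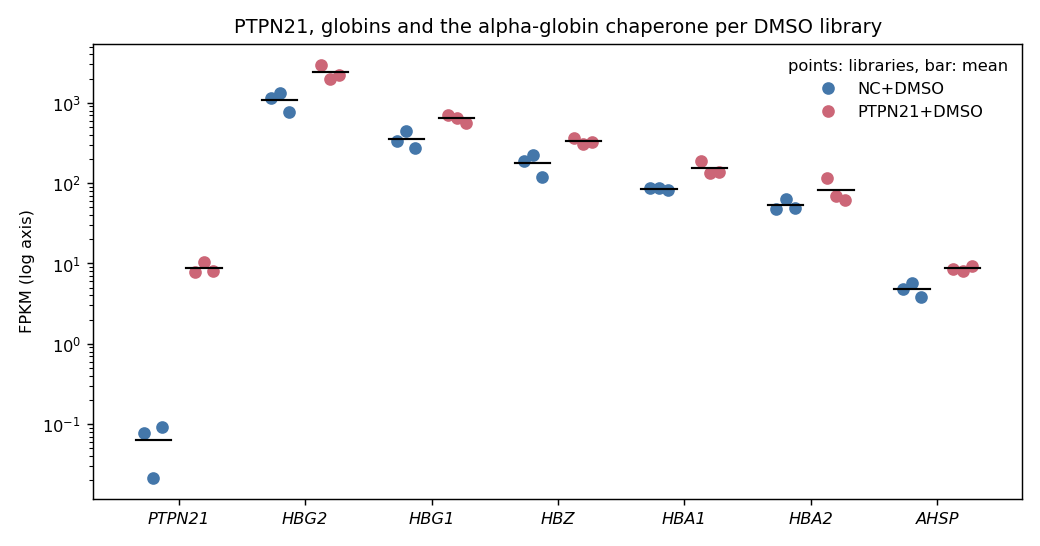
FPKM of PTPN21, 5 globin genes and AHSP in the 6 DMSO libraries on a log axis, each point a library and each bar a group mean. PTPN21 is below 0.1 in all NC+DMSO libraries and at 7.93 to 10.5 with the construct, and HBG2 is the most abundant gene plotted.

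Further genes of the erythroid programme were looked up after the globins had been seen, so they are a description. HBZ went from 190, 225 and 119 to 368, 304 and 328 (0.95, adjusted p = 0.0276, but 0.101 after the length correction), and AHSP, the chaperone of free alpha-globin, from 4.78, 5.78 and 3.87 to 8.60, 8.08 and 9.33 (0.75, adjusted p = 0.0424, but 0.0952 after the length correction). Of 15 heme and iron genes tested, 3 rose and 1 fell, against 2.53% and 3.56% of all genes. FTL and FTH1, the ferritin chains that store iron, rose by 0.91 and 0.67. TFRC, the transferrin receptor that brings iron in, fell by 1.08. FTH1 did not pass after the length correction (adjusted p = 0.052). HEBP2, a heme-binding protein and the second largest rise of all, was at 9.78, 12.6 and 17.9 against 99.98, 93.8 and 50.9 (2.49, adjusted p = 0.00692).

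The transcription factors of this programme did not move as a block. MYB, which keeps blood progenitors immature, fell from 196, 185 and 282 to 95.0, 118 and 122 (log2 fold change -0.96, adjusted p = 0.0167), LYL1 rose by 0.66 (adjusted p = 0.0482), and GATA1 and KLF1 had log2 fold changes of 0.46 and 0.45 (adjusted p = 0.179 and 0.169). EPB41, the red cell membrane skeleton protein 4.1, fell by 1.64 and GYPC, its membrane anchor, rose by 0.45. Apart from these genes, a list of 7 metallothioneins, zinc and copper binders, was chosen after values were seen. The 2 tested, MT1X and MT2A, rose by 1.39 and 1.10 (adjusted p = 0.00415 and 0.0127), against 2.53% of all genes that rose.

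Apart from PTPN21 and HEBP2, the largest rises included CENPA, CTNNBIP1, CCDC61 and PAOX. CTNNBIP1, which blocks the binding of beta-catenin to TCF factors, stood at 0.841, 2.41 and 7.65 in NC+DMSO and at 19.97, 18.5 and 17.7 in PTPN21+DMSO (log2 fold change 2.38, adjusted p = 0.0156). CCDC61, a centriole component, rose by 2.10. PAOX, a polyamine oxidase, rose by 1.73 from levels at or below 0.782 in NC+DMSO. Also in this set were C19orf81 (2.09), C4orf48 (1.87), AC108488.2 (1.84) and AC011479.4 (1.70), all below 30 FPKM in every DMSO library.

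Abundant genes that rose with small p included several outside the groups above. LGALS1, the secreted lectin galectin-1, was at 26.5, 28.8 and 24.1 against 72.7, 52.7 and 55.1 (log2 fold change 1.14, adjusted p = 0.00193), and ELOB, the elongin B subunit of ubiquitin ligases, at 119, 145 and 94.1 against 301, 255 and 283 (1.24, adjusted p = 0.00193). UBALD2 rose from 30.9, 40.3 and 43.2 to 134, 128 and 104 (1.66, adjusted p = 0.00193), AL365226.1 by 1.27 and AC024293.1 by 1.26. LGALS1, ELOB, UBALD2, AL365226.1 and AC024293.1 all passed with the 6 DMSO libraries alone and after the length correction.

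The largest falls were TCEA1P2, TMEM101, MIR548D1, CNOT6 and IER2. TCEA1P2 is a processed pseudogene, so its reads may not be assigned with certainty. TMEM101, a membrane protein, had 61.0, 67.0 and 59.1 FPKM in NC+DMSO and 8.30, 8.94 and 9.004 in PTPN21+DMSO (log2 fold change -2.70 ± 0.59, SE, n = 3 per group, adjusted p = 0.027). It had the smallest p of all genes when the 6 DMSO libraries were fitted alone (adjusted p = 0.000504), but under VCR the PTPN21 libraries read 4.86, 47.5 and 44.9, so its level varied within a group. PRCP, a lysosomal peptidase, also took a low or a high level, with 4.52 to 5.25 in PTPN21+DMSO, 18.6 to 23.4 in NC+DMSO, and 21.6, 4.91 and 4.71 in PTPN21+VCR. Whether such separated levels lie in the RNA or in how FPKM was estimated was not tested, so the changes of TMEM101 and PRCP are differences in listed FPKM only.

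CNOT6, a deadenylase of the CCR4-NOT complex that shortens poly(A) tails, fell from 5.31, 6.70 and 7.78 to 0.442, 1.13 and 0.628 (log2 fold change -2.14, adjusted p = 0.00692). NT5C2, a cytosolic nucleotidase that degrades purine nucleotides and thiopurine drugs, fell from 13.1, 10.3 and 11.9 to 1.75, 3.01 and 2.08 (-1.97, adjusted p = 0.0108). Both also passed with the 6 DMSO libraries alone (adjusted p = 0.0211 and 0.0188) and after the length correction. MINPP1, an inositol phosphate phosphatase, fell by 1.74 and passed in both as well. SNORD27, a small nucleolar RNA, stood at 9.91 to 15.2 against 0.0722 to 0.906 and passed with the 6 DMSO libraries alone (adjusted p = 0.013) but not with all 12 (0.0545).

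The other large falls were AC245452.1, a processed pseudogene (-1.95), APOL4, an apolipoprotein L (-1.82), ELF1, an ETS transcription factor (-1.78), and EBLN3P (-1.77). TCEA1P2 was at -2.73 and MIR548D1, a microRNA locus of 97 bases for which FPKM is unstable, at -2.27. Among abundant genes, SNAP23, which drives membrane fusion, API5, an inhibitor of apoptosis, and UBAP2L, a stress granule protein, fell by 1.55, 1.22 and 1.01. CAVIN2, THRAP3, HMGA1, SRRM1 and YY1AP1 fell by 0.99, 0.83, 0.72, 0.70 and 0.68, none of them with an adjusted p below 0.05 in the 6-library fit.

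Genes of mitosis and of the centromere moved in both directions. Against 2.53% of all genes that rose and 3.56% that fell, 2 of 37 G2/M genes rose and 6 fell, with a median log2 fold change of -0.21, and of 32 centromere and kinetochore genes 3 rose and 5 fell, with a median of -0.08. CENPA, the histone H3 variant that marks the centromere, stood at 3.79, 8.62 and 17.1 in NC+DMSO and at 46.0, 47.2 and 62.4 in PTPN21+DMSO (2.48 ± 0.41, SE, n = 3 per group, adjusted p = 0.0101). CKS2, a binding partner of cyclin-dependent kinases, rose from 49.97, 66.2 and 42.5 to 107, 111 and 100.2 (1.01, adjusted p = 0.00536).

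ECT2, the exchange factor that starts the cleavage furrow, fell most in these lists, from 10.8, 8.73 and 16.7 to 2.79, 4.09 and 4.34 (-1.43, adjusted p = 0.0121). The mitotic kinase AURKA fell by 1.03, the spindle checkpoint kinase BUB1B by 1.04 and WEE1, the kinase that holds CDK1 inactive, by 0.97 (adjusted p = 0.0263, 0.0445 and 0.0319). Among kinetochore genes CENPN rose by 0.61, whereas KNL1 fell by 0.86, CENPK by 0.66 and CENPL by 0.63. None of these 3 falls passed after the length correction (adjusted p = 0.133, 0.127 and 0.164), where the list held 4 rises and 1 fall. The list had no fall without NC+DMSO replicate 1, NC+DMSO replicate 3 or PTPN21+DMSO replicate 1, 1 without PTPN21+DMSO replicate 2 or 3 or without any PTPN21+VCR library, and 3 without NC+VCR replicate 3. Its rises were 1 without PTPN21+DMSO replicate 1 and 2 without NC+DMSO replicate 3 or PTPN21+DMSO replicate 3. The falls of G2/M genes were 6 in number with all libraries, 0 without PTPN21+DMSO replicate 1, 1 without NC+DMSO replicate 1 or 3 or PTPN21+DMSO replicate 3, 3 without PTPN21+DMSO replicate 2 and 9 without NC+DMSO replicate 2, and 3 after the length correction.

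**Figure D4:**
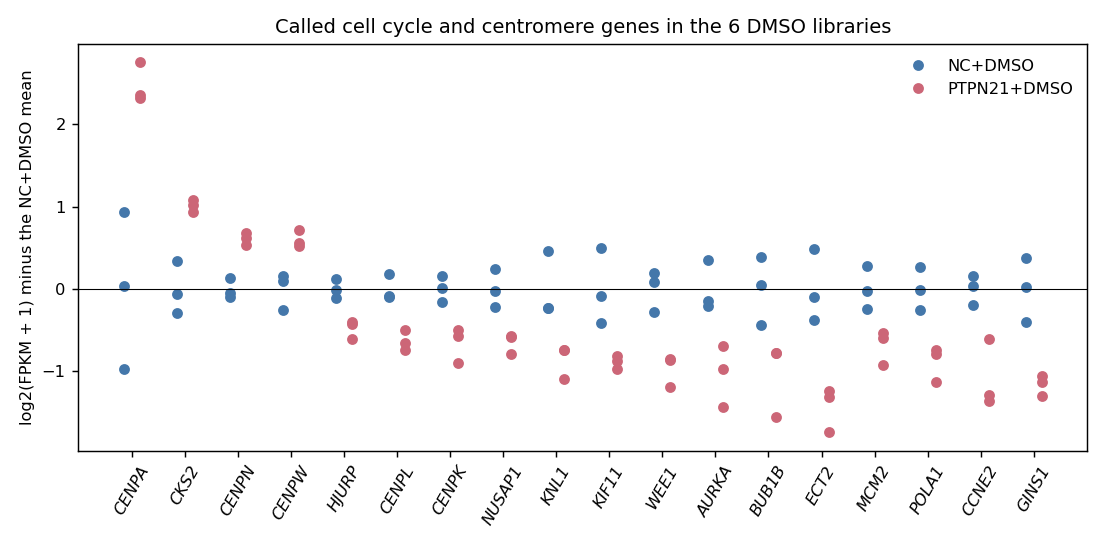
The 18 called members shown of the G2/M, centromere and G1/S lists in the 6 DMSO libraries, as log2(FPKM + 1) minus the mean of the 3 NC+DMSO libraries. The genes were selected by the test, so the separation of the groups is given as a description; CENPA is the farthest above 0 and ECT2 has the lowest single library.

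Genes of G1/S and DNA replication had no rise, where 2.53% of all genes rose and 3.56% fell. Of 43 tested, 4 fell: GINS1, a subunit of the replicative helicase (-1.16, adjusted p = 0.0127), CCNE2, cyclin E2 (-1.09), POLA1, the catalytic subunit of the priming polymerase (-0.88), and MCM2, another helicase subunit (-0.68, adjusted p = 0.0484). GINS1 alone passed after the length correction. The count of falls was 4 without NC+DMSO replicate 2, 0 without PTPN21+DMSO replicate 1, 3 without PTPN21+DMSO replicate 2, and 1 without each of the remaining DMSO libraries. Of 39 replication-dependent histone genes none passed, with 0.16 as the median.

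Of 23 chromatin regulators, a list chosen after values were seen, 5 fell, against 3.56% of all genes, and none rose, with a median log2 fold change of -0.47 and a median exon length of 12093 bases. After the length correction 3 fell and the median was -0.14. The list had 1 fall without NC+DMSO replicate 3, PTPN21+DMSO replicate 1 or PTPN21+DMSO replicate 3, 2 without NC+DMSO replicate 1 and 3 without PTPN21+VCR replicate 1 or 3, and its median was -0.20 without NC+DMSO replicate 3. BMI1, a Polycomb protein that maintains gene silencing, went from 26.4, 26.2 and 48.3 to 5.78, 11.6 and 9.37 (-1.79, adjusted p = 0.00692). CREBBP, a histone acetyltransferase, fell by 1.47, SMARCC1, a chromatin remodeler subunit, by 1.17, DNMT1, the maintenance DNA methyltransferase, by 0.98, and EZH2, the Polycomb methyltransferase, by 0.60.

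Of 42 splicing factors, 6 fell and 2 rose, against 3.56% and 2.53% of all genes. HNRNPK, at 800, 556 and 853 in NC+DMSO and 267, 467 and 403 in PTPN21+DMSO, fell by 0.97 (adjusted p = 0.0263), and SF3A1, a U2 snRNP component, fell by 0.99. HNRNPH1 and HNRNPM fell by 0.85 and 0.78, while the short core subunits SF3B5 and SNRPE rose by 0.79 and 0.77. After the length correction 4 fell and 1 rose, and without NC+DMSO replicate 3, PTPN21+DMSO replicate 1 or PTPN21+DMSO replicate 3 none fell.

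The cytoskeleton, to which the FERM domain of PTPN21 relates by background, showed 3 rises and 4 falls of 42 genes, against 2.53% and 3.56% of all genes. MYL12B, a regulatory light chain of non-muscle myosin, rose from 766, 765 and 564 to 1400.4, 1238 and 1255 (0.91, adjusted p = 0.00536), and PFN1 and VIM, profilin and vimentin, rose by 0.74 and 0.57. MSN, moesin, itself a FERM protein that ties actin to the membrane, fell from 350, 297 and 448 to 133, 205 and 193 (-1.04, adjusted p = 0.013). FLNA and MYH9, filamin A and the heavy chain of non-muscle myosin, fell by 1.11 and 0.89. After the length correction 2 rose and 3 fell. The list had no fall without NC+DMSO replicate 3 or PTPN21+DMSO replicate 1 and 1 without PTPN21+DMSO replicate 3, and it had 1 rise without each of these libraries and without NC+DMSO replicate 1. Leaving out a PTPN21+VCR library gave 2 rises.

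Immediate early genes, which growth signals and stress induce without new protein synthesis, gave 2 falls and no rise among 16. Of all genes, 3.56% fell and 2.53% rose. IER2 was at 15.6, 21.3 and 23.6 in NC+DMSO and at 2.66, 6.16 and 3.97 in PTPN21+DMSO (-2.04 ± 0.26, SE, n = 3 per group, adjusted p = 0.00347, and 0.0407 with the 6 DMSO libraries alone). ATF3, a stress-induced transcription factor, was at 43.8, 39.2 and 49.4 against 26.7, 21.1 and 21.6 (-0.91, adjusted p = 0.00692). Both genes passed without each of the 6 DMSO libraries in turn and after the length correction.

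Among 30 ATF4 targets and unfolded protein response genes, 4 rose and 2 fell, against 2.53% and 3.56% of all genes. XBP1, a transcription factor of the unfolded protein response, rose from 41.1, 52.9 and 78.5 to 108, 112 and 122.7 (1.03, adjusted p = 0.0144), and the endoplasmic reticulum chaperones HSP90B1, MANF and SDF2L1 rose by 0.43, 0.69 and 0.57. CANX, the chaperone calnexin, fell by 0.75 and DDIT4, an inhibitor of mTOR, by 0.46. MANF, SDF2L1 and CANX did not pass after the length correction (adjusted p = 0.06, 0.155 and 0.0597). Of 14 heat shock genes, HSP90AB1 fell by 0.39 (adjusted p = 0.0315, but 0.0729 after the length correction).

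Metabolic and lineage lists gave few calls, to be read against the 2.53% of all genes that rose and the 3.56% that fell. In cholesterol and fatty acid synthesis 3 of 28 fell, among them ACLY, which makes cytosolic acetyl-CoA (-0.94), and SCD, a fatty acid desaturase (-0.86). In glycolysis and the pentose phosphate pathway TALDO1 and GAPDH rose by 0.81 and 0.54 and PFKM and HK1 fell by 0.78 and 0.72, of 25 tested. In the T cell leukemia transcription circuit HES4, a Notch target, rose by 1.35, and MYB, FBXW7, a ubiquitin ligase subunit, and TCF12 fell by 0.96, 1.21 and 1.24, of 12 tested. In T cell receptor signalling CD3D rose by 0.72 and PTPRC, the phosphatase CD45, fell by 0.88, of 21 tested. After the length correction 2 falls were called in the lipid list, 4 rises and 2 falls in glycolysis, 2 falls in the T cell leukemia circuit and none in T cell receptor signalling.

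The lists nearest to PTPN21 and several lists of apoptosis, immune and signalling genes held few calls. Of 10 genes among its partners and related phosphatases, 13 of the Hippo pathway, 15 JNK and p38 kinases and GADD45 genes, 11 of the BCL2 family, 14 interferon-stimulated genes, 14 of the NF-kB pathway and 9 of MHC class I presentation, none passed. Their medians, in this order, were -0.45, -0.20, -0.39, 0.09, 0.12, -0.14 and 0.13, against -0.14 over all genes. For partners, Hippo and JNK lists they were -0.11, 0.09 and -0.32 after the length correction, against -0.006 over all genes. Without NC+DMSO replicate 2, which gave 1341 calls, 2 partner, 2 Hippo and 3 JNK list genes fell and none rose. In the same fit the BCL2 and MHC lists held 1 rise each and the NF-kB list 1 fall. The interferon list held 1 rise and 1 fall. PTPN14, EGFR and YAP1 stayed below 0.2 FPKM in the DMSO libraries. In the ERK pathway 1 gene of 19 fell and none rose, against 3.56% and 2.53% of all genes. Without PTPN21+DMSO replicate 1 no member of the translation factor, proteasome, splicing, replication, unfolded protein response, heat shock, lipid, glycolysis, T cell receptor, T cell leukemia or ERK lists was called. Without NC+DMSO replicate 1 or 3 the ERK, heat shock, lipid and T cell receptor lists held no call.

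The study measured a set of apoptosis and cell cycle genes, and without drug PARP1 passed among those given here. PARP1, a DNA repair enzyme cleaved during apoptosis, was at 149, 138 and 164 in NC+DMSO and at 94.9, 118 and 107 in PTPN21+DMSO (-0.49, adjusted p = 0.0372, but 0.171 after the length correction and 0.135 with median ratio scaling). GADD45A, a stress sensor upstream of JNK, was at 97.4, 102 and 131 against 75.7, 95.8 and 93.2, with the highest control library apart from the rest (-0.31 ± 0.14, SE, n = 3 per group, adjusted p = 0.189). JUN, the transcription factor that JNK activates, had 24.0, 26.7 and 35.8 against 19.3, 22.5 and 20.4 (-0.44, adjusted p = 0.115). The groups of GADD45A and JUN did not overlap, as was the case for 21.6% of all genes in the lower direction.

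ATF4 was split inside both groups, at 26.3, 302 and 246 in NC+DMSO and at 29.8, 32.7 and 330 in PTPN21+DMSO (adjusted p = 0.592), and whether these 2 levels lie in the RNA or in how FPKM was estimated was not tested. MAPK8, which encodes JNK1, was at 19.3, 6.04 and 7.38 against 7.31, 6.43 and 4.60 (-0.60, adjusted p = 0.376). NC+DMSO replicate 1 stood far above the other controls. BAX, CCNB1 and CDK1 had log2 fold changes of 0.09, 0.10 and -0.12 (adjusted p = 0.532 to 0.853), and BCL2 was not tested, since it lay between 0.102 and 0.388 FPKM in the 6 libraries.

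The 725 genes were then read in the VCR libraries, whose log2 fold changes use no DMSO library. The comparisons are not independent, because a single fit of all 12 libraries gave both the same estimate of the spread. Nothing in the sources says that the VCR libraries came from separately transduced cells. Estimated depth was also higher with the construct under VCR, at 41.1 to 44.3 in PTPN21+VCR and 33.2 to 35.8 in NC+VCR on a relative scale. Whether the shared signs given next come from PTPN21, from the transduced populations or from depth was not tested. Of the 301 genes that rose without drug, 242 (80.4%) were also above 0 with VCR, against 53.4% of all genes, and their median log2 fold change went from 0.82 without drug to 0.33 with VCR. Of the 424 that fell, 328 (77.4%) were below 0, against 46.3% of all genes, and their median went from -0.88 to -0.21. Because the genes were selected by their DMSO change, smaller medians in the VCR libraries are expected from the selection alone. Whether VCR altered the size of the change was not tested by these medians. Length varied with the change in the VCR libraries too, with rho of -0.15, and after the correction for GC content and length the VCR medians were 0.23 and -0.25.

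In the VCR comparison itself 1.44% of all genes passed, and 31 of the 301 rises did so again (10.3%, against 0.807% of all genes) and 11 of the 424 falls (2.59%, against 0.631%). The interaction test, which asks whether the change differs between DMSO and VCR libraries, was passed by 6 of the 725 genes, and by 0.0504% of all genes tested. It uses the same DMSO values by which the 725 genes were called, so a higher share among them is expected from the selection. The 6 genes were IER2, FBXW7, COX4I1, UBALD2, NGRN and MIR6724-4. Among the lists, ribosomal protein genes had 6 rises and 1 fall with VCR and a median of 0.24, and respiratory chain genes 8 rises and a median of 0.42.

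**Figure D5:**
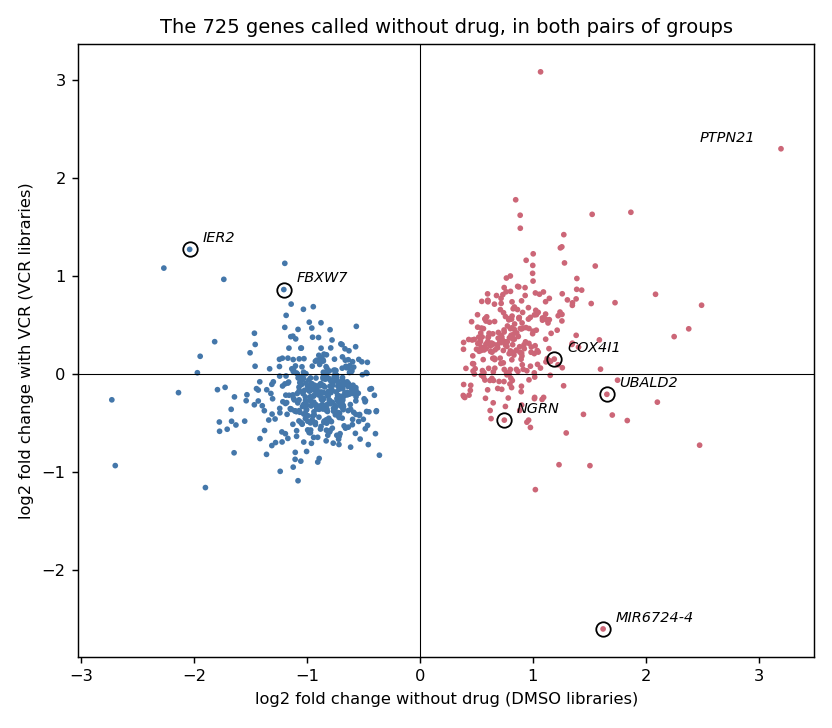
Log2 fold change with the PTPN21 construct in the DMSO libraries (horizontal) and in the VCR libraries (vertical) for the 725 genes called without drug, with circles around the 6 genes that passed the interaction test. Most red points lie above and most blue points below the horizontal line. The VCR changes are smaller, which is expected because the genes were selected by their DMSO change.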

How the data were processed

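The authors deposited FPKM per gene for 12 libraries, computed by a contracted company. The quantifier, annotation and strand setting are not given in the sources used here. The submitters' processing notes name fastp, Bowtie2 and the mouse build mm10, although the table lists human Ensembl genes. Groups and replicates came from the sample titles. Gene positions, lengths and GC content came from GENCODE 29 (GRCh38), which covered 99.2% of the genes tested, and start-site sequences from RefSeq (GRCh38.p14).

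From the deposited FPKM, log2(FPKM + 1) was fitted with limma 3.58.1 in R 4.3.3 (intensity trend, 4 group means, 12 libraries, Benjamini-Hochberg over 11894 genes, threshold 0.05). The fit was tested on simulated data with 200 changed genes. It recovered 86.4% of log2 changes of 2 and 42.6% of log2 changes of 1, and 5.01% of its calls were false. The simulated noise was independent, with the same spread in all groups. Unequal spread between groups and trends with length or depth were therefore not covered. Relative depth was estimated from the steps in FPKM times length of single-exon genes, where 43.5% to 45% of low values in the DMSO libraries lay within 0.1 of a whole step, against 20% by chance. This leaves a common factor unknown, and low values carry most counting error. Tables and plots used Python 3.11.15.

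Genes named were PTPN21, the 12 largest rises and falls with groups that do not overlap, the 10 abundant rises and falls (mean FPKM of at least 20) and the 10 genes of the 6-library fit with the smallest p, up to 6 called members per list, and genes the study measured, except some that are not reported here. The members and lists were chosen with earlier results of these data known.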

Additional observations from a re-analysis of the deposited data

Results flagged for a closer look

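In 6 of the 725 genes called without drug, the change with PTPN21 differed between the DMSO and the VCR libraries by the limma interaction test. That test reuses the DMSO values by which the 725 genes were called. All values that follow are log2 differences of the VCR change minus the DMSO change, or FPKM of the libraries. IER2 differed by 3.31 (adjusted p = 0.00531), with 2.66 to 6.16 FPKM in PTPN21+DMSO against 15.6 to 23.6 in NC+DMSO, and 10.7 to 12.5 in PTPN21+VCR against 3.16 to 5.38 in NC+VCR, so the order of the groups was turned. FBXW7 differed by 2.07 (adjusted p = 0.0422), with log2 fold changes of -1.21 without drug and 0.86 with VCR. MIR6724-4, a microRNA locus of 92 bases listed at 0 in all NC+DMSO libraries, differed by -4.22 (adjusted p = 0.00013), with 1.79 to 2.60 in PTPN21+DMSO, 6.72 to 8.16 in NC+VCR and 0.15 to 0.803 in PTPN21+VCR. UBALD2 differed by -1.86 (adjusted p = 0.0422), NGRN by -1.22 (adjusted p = 0.0455) and COX4I1 by -1.04 (adjusted p = 0.0422). COX4I1 stood at 221 to 285 in NC+DMSO and at 545 to 694 in the other 9 libraries.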

How the results depend on the processing

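The PTPN21 level kept its rise and its call under every alternative that tested it (log2 fold change 3.08 to 3.26 without single libraries and 5.78 with a pseudocount of 0.1), and was not tested with a mean FPKM of at least 5, which it does not reach. The count of 725 calls became 194 with no filter on low values, 287 in limma without the trend, 43 with only the 6 DMSO libraries fitted and 240 with at least a 2-fold change, and ran from 55 to 1341 without single libraries. Alternatives added after seeing the data gave 407 calls with the GC content and length correction, 337 of them among the 725, 165 with that correction and the replicate block, and 137 without both NC replicate 3 libraries. The replicate block gave 225 calls over 12 libraries and 2 over the 6 DMSO libraries. Same-numbered libraries did not deviate together over all genes (correlations of -0.137 to 0.0594 over 18 pairs). The titles give only a number, and these correlations cannot exclude a shared culture or batch that acted on some genes. The 6 interaction calls became 2 with no filter, 10 with quantile normalization, 2 without the trend, 2 with the block, 13 and 3 with the length correction without and with the block, 11 without both NC replicate 3 libraries, and 2 to 19 without single libraries. Among the genes that did not pass, signs turned for BAX and CCNB1 with TPM scaling (-0.038 and -0.045), for CDK1 with median ratio scaling (0.081) and the length correction with or without the block (0.11), and for BAX without NC+DMSO replicate 2 or PTPN21+DMSO replicate 3 (-0.011 and -0.10, in a range from -0.10 to 0.23 without single libraries). The cause of these changes was not tested. FPKM carries no depth, so the precision of low values could not be given.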
